A study of Rattus norvegicus with 9 samples.

Results

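The tibia of rats that received the hydrogel GelMA was compared with the tibia of the Model group across all measured genes. The comparison uses 6 of the 9 RNA sequencing libraries of the study, chosen by their labelled group: 3 labelled GelMA (replicates 2, 3 and 4) and 3 labelled Model (replicates 1, 2 and 5). All 9 libraries are total RNA of the tibia of male Sprague Dawley rats. The remaining 3 libraries, labelled PMLGH (replicates 2, 3 and 4), share the filter, scaling and estimate of spread of the fit and show where GelMA differs from a further hydrogel group. A fit without them gave 1776 genes higher and 1630 lower in GelMA, against the 2143 and 1661 reported here. The title of the study concerns bone healing in diabetes and a peptide that imitates lysyl oxidase. The labels do not say what was done to the Model group, how PMLGH is composed, how old the rats were, when the bone was taken, or whether each library is a separate animal. The p-values therefore measure the spread between these libraries, which may be technical in part.

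GelMA is gelatin methacryloyl, a derivative of denatured collagen that is cross-linked by light into a soft hydrogel and is widely used as a carrier in bone repair. A healing long bone passes through inflammation, in which neutrophils and macrophages enter, and through the deposition of a collagen matrix by fibroblast-like and periosteal cells, which osteoblasts then mineralize. The marrow beside it makes red cells, platelets and leukocytes, and skeletal muscle and tendon lie on its surface.

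The libraries held 34571478 to 35620680 counts in Model and 35816685 to 36211238 in GelMA, and the labels name no batch. Markers of bone and marrow cells were well above 0 in all 6 libraries. Bglap, made by osteoblasts, lay between 209.7 and 552.5 CPM (counts scaled to a common library total), Dmp1 of osteocytes between 298.1 and 840.8 CPM, and Mpo of neutrophil precursors between 1054 and 1377 CPM. Skeletal muscle was also present, with Acta1 between 158.9 and 1005 CPM. Model 2 stood apart within its group: averaged over genes, the chi-square of its counts was 33.0 with Model 1 and 27.7 with Model 5, while Model 1 and Model 5 gave 15.7. Pairs of GelMA libraries gave 7.56 to 15.6. The first principal component, 34.4% of the variance, placed the 3 Model libraries between -45.5 and -36.5 and the 3 GelMA libraries between 14.9 and 22.8.

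Of 16816 genes tested with edgeR, 3804 (22.6%) passed an adjusted p of 0.05 between GelMA and Model. Of these, 2143 genes (12.7% of those tested) were higher in GelMA and 1661 (9.88%) were lower. Rises were larger than falls. The median rise was 0.59 on the log2 scale and the median fall was -0.33, 524 rises but 66 falls reached 2-fold, and 177 rises but 16 falls reached 4-fold. The median log2 fold change over all genes tested was 0.03. Libraries of the 2 groups did not overlap for 36.6% of all genes tested and for 3634 of the 3804 that passed. The number of falls moved with the Model libraries in the fit: 1035 genes were lower without Model 1, 1088 without Model 5 and 2468 without Model 2.

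**Figure D1:**
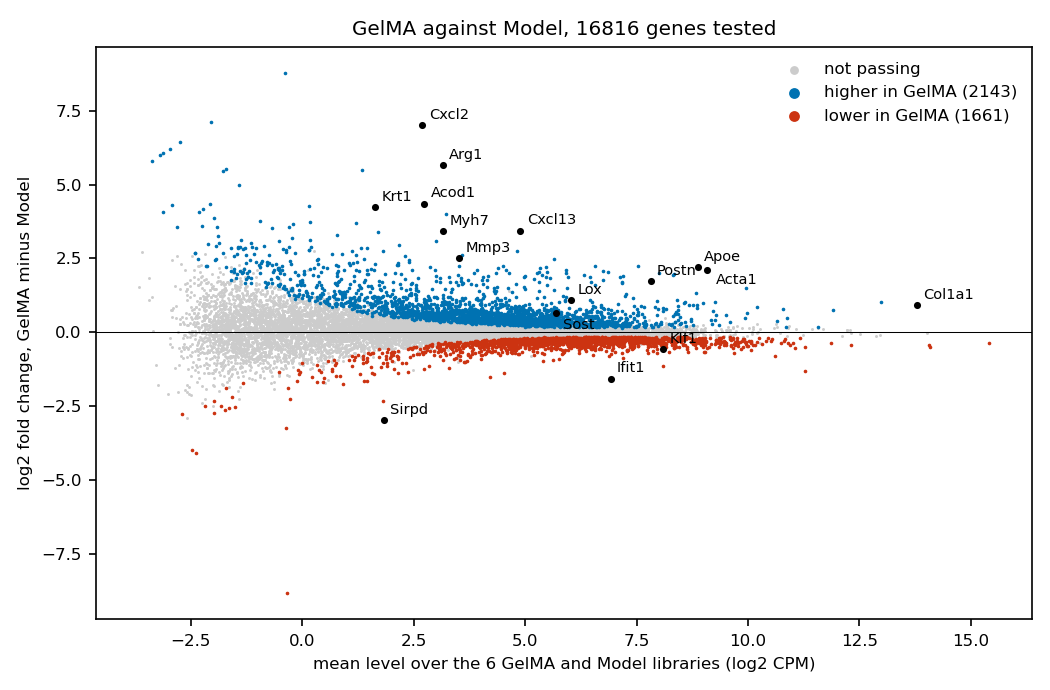
Log2 fold change of GelMA against Model (vertical axis) for each of the 16816 genes tested, against its mean level over the 6 libraries (horizontal axis, log2 CPM). Blue points are the 2143 genes that were higher in GelMA, red points the 1661 that were lower and grey points did not pass; rises extend further from 0 than falls.

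The genes of the collagen matrix were higher in GelMA. Of 27 collagen chain genes tested, 24 rose and 0 fell, with a median log2 fold change of 0.88 against 0.03 over all genes tested. Together the collagen chains held 1.99%, 2.10% and 1.74% of all counts in Model 1, 2 and 5. In GelMA 2, 3 and 4 they held 3.48%, 4.01% and 3.79%. Every GelMA library was above every Model library in this share (exact two-sided permutation p = 0.1, the smallest that 3 against 3 libraries allow).

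Col1a1, the main chain of bone collagen, was at 9929, 10513 and 8759 CPM in Model and at 17267, 19484 and 18405 CPM in GelMA. It was higher by 0.92 ± 0.08 (SE) on the log2 scale (edgeR adjusted p = 1.39e-06). Col3a1, the chain of early repair tissue and vessel walls, was at 544.9, 466.9 and 535.1 CPM in Model and at 1340, 1580 and 1478 CPM in GelMA. The groups lay far apart, at 1.51 ± 0.09 on the log2 scale (edgeR adjusted p = 3.24e-08). Col15a1 and Col18a1, both of basement membrane zones, rose by 1.39 and 1.48 on the log2 scale. Col5a1, which starts fibril assembly, rose by 1.07, Col12a1, which coats fibrils in tendon and periosteum, by 0.98, and Col4a1, the network collagen of basement membranes, by 0.88.

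The enzymes that modify and cross-link collagen moved with it. Of 21 tested, 16 rose and 0 fell, with a median log2 fold change of 0.63. Lox, the lysyl oxidase that oxidizes collagen lysines so that fibrils can be joined, was at 41.9, 42.9 and 40.8 CPM in Model and at 84.4, 89.9 and 91.8 CPM in GelMA. The groups were narrow and far apart, at 1.08 ± 0.08 on the log2 scale (edgeR adjusted p = 1.85e-07). Its relatives Loxl1, Loxl2 and Loxl4 rose by 0.89, 0.75 and 0.66 on the log2 scale. Plod2, which hydroxylates the lysines at the ends of collagen molecules, rose by 0.64, and Serpinh1, the collagen chaperone, by 0.63. Per length, Lox stood at 7.97 ± 0.25 FPKM (SD, n = 3) in Model and 17.4 ± 0.96 FPKM in GelMA, far below Col1a1, at 1651 ± 160 and 3202 ± 227 FPKM.

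Proteins that organize the matrix rose as well. Of 13 small leucine-rich proteoglycans, 10 rose and 0 fell (median log2 fold change 0.61), among them Lum (0.93), Bgn (0.71) and Dcn (0.61), which bind collagen fibrils and set their diameter, and Podn (1.26). Of 22 matricellular proteins, which sit in the matrix and signal to cells, 17 rose and 1 fell (median 0.74). Postn, made by periosteum and healing tissue, was at 123.9, 79.8 and 110.8 CPM in Model and at 310.2, 371.2 and 352.6 CPM in GelMA. All 3 GelMA libraries were above all 3 Model libraries, by 1.72 ± 0.12 on the log2 scale (edgeR adjusted p = 2.19e-07). Tnn, a tenascin of periosteum and forming bone, rose by 1.92, Thbs2 by 1.65 and Sparcl1 by 1.20.

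Matrix proteases and their inhibitors rose in 22 of 29 genes tested and fell in 0 (median log2 fold change 0.71). Mmp3, stromelysin, was at 3.57, 3.24 and 3.52 CPM in Model and at 21.3, 18.8 and 18.5 CPM in GelMA. The groups lay far apart, at 2.50 ± 0.11 on the log2 scale (edgeR adjusted p = 2.64e-09). Mmp14, a membrane-bound collagenase, rose by 1.22, Mmp2, the gelatinase it activates, by 1.16, Adamts2, which trims procollagen, by 0.97, and the inhibitor Timp2 by 0.78.

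Genes of skeletal muscle rose in the same libraries, and their part in the matrix results was not tested. The 44 muscle genes held 0.161%, 0.137% and 0.175% of counts in Model 1, 2 and 5, and 0.508%, 0.525% and 0.634% in GelMA 2, 3 and 4. In PMLGH, muscle genes held 0.201% to 0.254% and collagen chains 3.90% to 4.57%. The collagen shares of PMLGH and GelMA overlapped, and every PMLGH library was below every GelMA library in muscle share. Every PMLGH library was above every Model library in both shares. In bulk tissue, more cells of a type and more RNA per cell cannot be told apart.

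Bone-forming cells showed a rise in most of their genes. Of 23 osteoblast and mineralization genes tested, 17 rose and 1 fell, with a median log2 fold change of 0.49. Bglap, osteocalcin, was at 252.4, 293.6 and 209.7 CPM in Model and at 492.5, 552.5 and 507.0 CPM in GelMA. The groups did not overlap, and the log2 fold change was 1.04 ± 0.10 (edgeR adjusted p = 3.33e-06). Alpl, the alkaline phosphatase of mineralizing cells, rose by 0.70, Smpd3, a sphingomyelinase needed for mineralization, by 0.71 and the cadherin Cdh11 by 0.58. Runx2, the transcription factor at the start of the lineage, was at 51.6, 45.6 and 47.7 CPM in Model and at 54.4, 60.8 and 58.0 CPM in GelMA. Its small rise of 0.26 ± 0.07 passed (edgeR adjusted p = 0.0218) but not without Model 2 (0.0777), Model 5 (0.0848), GelMA 3 (0.147) or GelMA 4 (0.0885).

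Osteocytes, the cells embedded in bone, gave a similar picture: 9 of 14 of their genes rose and 0 fell, with a median log2 fold change of 0.71. Dmp1, a matrix phosphoprotein, was at 474.5, 442.6 and 298.1 CPM in Model and at 810.1, 840.8 and 816.0 CPM in GelMA. The 3 GelMA libraries lay close together and above the highest Model library (log2 fold change 1.02 ± 0.16, edgeR adjusted p = 0.000415). Sost, sclerostin, an inhibitor of Wnt signalling and of bone formation, was at 40.4, 38.7 and 41.7 CPM in Model and at 58.2, 64.8 and 67.9 CPM in GelMA. It rose by 0.66 ± 0.08 (edgeR adjusted p = 2.10e-05), and Mepe, Phex and Pdpn rose by 0.82, 0.76 and 0.94.

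The osteoclast genes were more mixed, with 10 of 22 higher, 1 lower and a median log2 fold change of 0.37. Together they held 0.611%, 0.553% and 0.551% of counts in Model 1, 2 and 5. In GelMA 2, 3 and 4 they held 0.582%, 0.590% and 0.589%, so the groups overlapped in this share (exact two-sided permutation p = 0.4). The mean log2 CPM of the list, which weighs each gene alike, did not overlap. It was 5.37 to 5.58 in Model and 5.80 to 5.83 in GelMA. Acp5, the tartrate-resistant phosphatase, was at 552.0, 491.6 and 447.8 CPM in Model and at 688.6, 769.9 and 762.1 CPM in GelMA, a rise of 0.57 ± 0.09 (edgeR adjusted p = 0.000527). Ctsk, the collagen-degrading protease of osteoclasts, rose by 0.49. Car2, carbonic anhydrase, which osteoclasts share with red cell precursors, fell by 0.50. The number of osteoclast genes that rose dropped to 5 without Model 1, and to 6 without Model 5 or without GelMA 3. Of 24 cartilage genes, 7 rose and 2 fell (median 0.23), with Col11a1 and Col11a2 up by 0.81 and 0.63 and Sox6, a chondrocyte transcription factor, down by 0.39 on the log2 scale. Without GelMA 3, 3 cartilage genes rose.

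Signalling genes of the mesenchyme rose in part. Of 35 genes of TGF-beta and BMP signalling, 21 rose and 1 fell (median log2 fold change 0.39). Ltbp2 and Ltbp3, of the family named for binding latent TGF-beta, rose by 1.02 and 0.61. Inhba, the activin A subunit, rose by 0.85, Fstl1, a secreted BMP antagonist, by 0.78 and the ligand Tgfb3 by 0.92. Of 34 Wnt genes, 14 rose and 1 fell (median 0.49), and 9 rose without GelMA 3. The secreted modulators Sfrp1, Sfrp2 and Dkk3 rose by 0.65, 0.73 and 0.60, beside the receptors Fzd1 (0.76) and Fzd2 (0.96).

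Fibroblast and tendon genes rose in 21 of 27 and fell in 0 (median log2 fold change 0.79). Fbln2, a glycoprotein of elastic fibres, rose by 2.09, Mfap5 by 1.13, and Pdgfra, the receptor that marks mesenchymal progenitors, by 0.63. Smooth muscle and pericyte genes rose in 16 of 20 and fell in 0 (median 0.74). Acta2, the actin of smooth muscle and of myofibroblasts, was at 18.1, 14.5 and 23.6 CPM in Model and at 61.4, 59.7 and 61.9 CPM in GelMA. The rise was 1.70 ± 0.12 (edgeR adjusted p = 1.61e-07), and Tagln and Myh11 rose by 1.58 and 0.74. Des and Tpm2, which skeletal muscle also makes, rose by 1.82 and 1.60. Of 31 endothelial genes, 16 rose and 1 fell, with a median of 0.28. Pecam1 and Cdh5, the junction proteins of endothelium, rose by 0.45 and 0.39, Vcam1 fell by 0.36, and 9 genes of the list rose without GelMA 3.

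**Figure D2:**
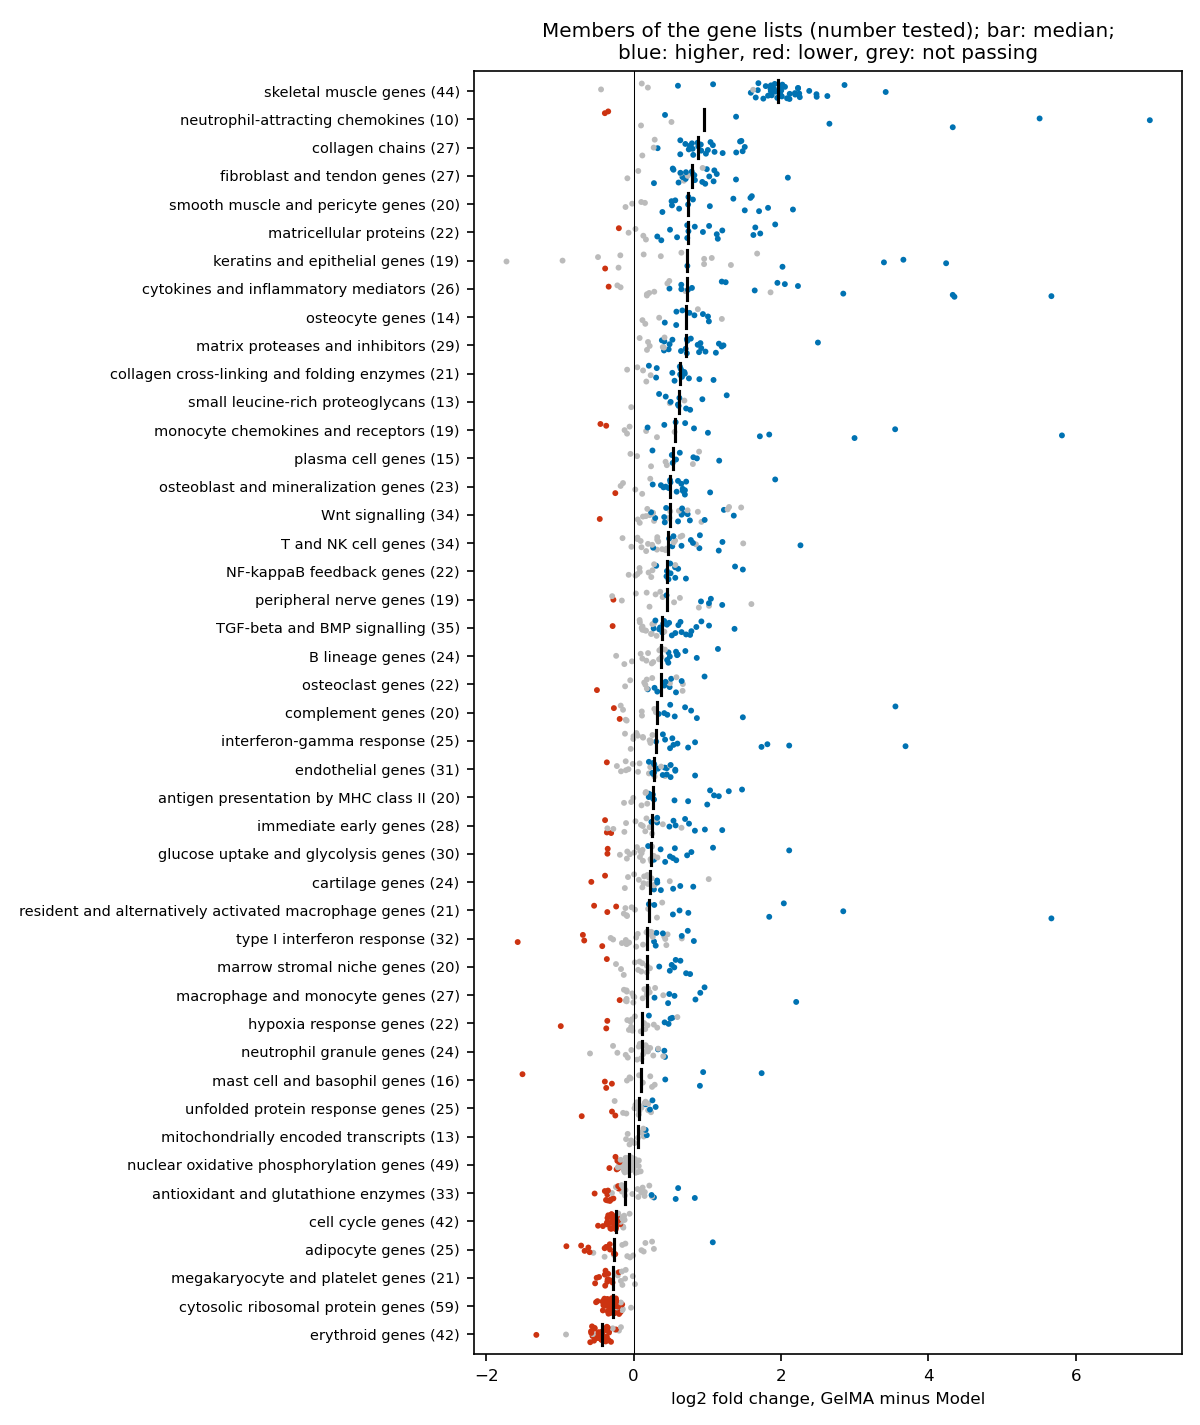
Log2 fold change of GelMA against Model (horizontal axis) for the tested members of each of the 45 gene lists (rows, with the number tested), ordered by the median, which is the black bar. Blue points were higher in GelMA, red points lower and grey points did not pass; skeletal muscle genes have a median of 1.96 and erythroid genes one of -0.43.

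Mediators of inflammation were among the largest rises. By the naming rule, the 12 largest rises among genes of at least 1 CPM were those of Cxcl2, Arg1, Cxcl3, Acod1, Ca4, Krt1, Fcrl2, Cxcl11, Cxcl13, Myh7, Krt10 and Smpx, from 7.01 down to 3.28 on the log2 scale. The list of neutrophil-attracting chemokines also holds the growth factor Csf3 and the receptors Csf3r and Cxcr2. Of its 10 genes tested, 6 rose and 2 fell. The fit without PMLGH tested 9 of them, and 4 rose and 2 fell. Cxcr2 rose by 0.43 and passed narrowly (edgeR adjusted p = 0.0468). It did not pass with DESeq2, or when Model 1, Model 5 or any 1 GelMA library was left out. Cxcl2, a ligand of the neutrophil receptor Cxcr2, was at 0, 0.225 and 0.0587 CPM in Model and at 14.3, 11.6 and 12.7 CPM in GelMA. It was thus near or at 0 in each Model library, with 10 counts over the group against 1410 in GelMA. This is a ratio of 133 with a 95% counting interval of 72.1 to 278, and the edgeR adjusted p was 2.64e-09. The related Cxcl3 was at 0.0295, 0.225 and 0.0587 CPM in Model and at 5.83, 5.33 and 3.81 CPM in GelMA, a ratio of 46.9 with an interval of 26.0 to 94.5. Cxcl1 and Cxcl6 rose by 2.66 and 1.39 on the log2 scale. Pf4, a platelet chemokine in the same list, fell by 0.39. Summed, the list held 0.0452% to 0.0508% of counts in Model and 0.0474% to 0.0485% in GelMA. The groups overlapped in this share (exact two-sided permutation p = 0.9), in which genes at high levels weigh most. The mean log2 CPM of the list, which weighs each gene alike, was 1.45 to 2.01 in Model and 3.63 to 3.65 in GelMA. Csf3, the granulocyte growth factor, had 2 counts over the 3 Model libraries and 50 over the 3 GelMA libraries. This is a ratio of 23.6 with an interval of 6.19 to 200.0. Csf3 reached the filter for low counts only with the PMLGH libraries, so the fit without PMLGH did not test it.

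The region before the start of these chemokine genes is shown because it holds the letters to which NF-kappaB, the transcription factor of inflammatory signalling, is known to bind. In the RefSeq promoter table (build GRCr8), the NF-kappaB motif (GGG, any 2 bases, then TTTCC), searched on both strands, lay within 250 bases before the start of 1.28% of 27457 promoters and of 1.53% of the 12519 promoters of genes tested here. Of the 6 genes of the neutrophil-attracting chemokine list that rose, 4 had a promoter in the table and 3 of these held a match. The same held for 2 of 8 among the cytokine and mediator genes that rose and 2 of 8 among the genes of the monocyte list that rose. The 3 are Cxcl1, Cxcl2 and Cxcl6, related genes that lie close together on chromosome 14, so their matches are not separate observations. Other motifs were searched too. An interferon response motif lay in 4 of 11 promoters of interferon-gamma genes that rose (36.4%, against 2.80% of genes tested). It also lay in 4 of 27 promoters of erythroid genes that fell (14.8%) and in 0 of the other lists searched. A GATA motif lay in 7 of 27 promoters of erythroid genes that fell (25.9%, against 6.33%). It also lay in 1 of 4 of the neutrophil-attracting list and in 0 of the others. An AP-1 motif (TGA, any base, then TCA) lay in 3 of 11 interferon-gamma promoters (27.3%, against 4.71%). It also lay in 1 of 8 of the monocyte list, 1 of 27 of the erythroid list and 0 of the others. A match describes the letters and is not a measured site. Among neutrophil-attracting, cytokine and monocyte list genes that rose and held an NF-kappaB match, the 4 with the largest change are printed. They are given 5′ to 3′ on the strand of the gene, with NF-kappaB matches in capitals. Cxcl2 lies at chr14:17467256-17467505 on the minus strand, Cxcl1 at chr14:17479322-17479571 on the minus strand, Il6 at chr4:5894576-5894825 on the minus strand and Ccl20, a chemokine of the monocyte list, at chr9:91836909-91837158 on the plus strand. Ccl20 had 0 counts in each Model library and 0.138, 0.438 and 0 CPM in GelMA 2, 3 and 4, 21 counts in all, so the groups overlap. Its mean was at least 2.21-fold higher against a floor of 3 counts per library. It passed narrowly (edgeR adjusted p = 0.0443) and did not pass without any one of Model 1 (0.101), Model 2 (0.0592), Model 5 (0.101), GelMA 2 (0.0628) or GelMA 3 (0.196). Like Il6, Ccl20 reached the filter for low counts only with the PMLGH libraries, so the fit without PMLGH did not test either gene.
Cxcl2: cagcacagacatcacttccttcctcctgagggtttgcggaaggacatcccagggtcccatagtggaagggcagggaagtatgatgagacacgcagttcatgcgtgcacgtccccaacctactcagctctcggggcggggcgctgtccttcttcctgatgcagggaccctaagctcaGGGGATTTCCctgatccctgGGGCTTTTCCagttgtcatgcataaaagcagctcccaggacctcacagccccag
Cxcl1: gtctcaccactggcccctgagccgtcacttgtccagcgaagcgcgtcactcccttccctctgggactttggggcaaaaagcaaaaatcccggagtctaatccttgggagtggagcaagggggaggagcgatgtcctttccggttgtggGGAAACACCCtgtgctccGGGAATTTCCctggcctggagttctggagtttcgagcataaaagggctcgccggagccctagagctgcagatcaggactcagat
Il6: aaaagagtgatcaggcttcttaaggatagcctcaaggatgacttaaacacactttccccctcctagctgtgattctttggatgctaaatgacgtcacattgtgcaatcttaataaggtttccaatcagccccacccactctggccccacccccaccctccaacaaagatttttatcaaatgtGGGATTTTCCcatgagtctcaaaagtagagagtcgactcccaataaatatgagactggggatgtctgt
Ccl20: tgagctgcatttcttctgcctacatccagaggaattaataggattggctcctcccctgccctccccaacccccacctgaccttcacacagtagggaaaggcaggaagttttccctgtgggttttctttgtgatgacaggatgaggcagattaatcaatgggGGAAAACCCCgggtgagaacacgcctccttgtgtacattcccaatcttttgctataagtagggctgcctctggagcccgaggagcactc

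Of 26 cytokine and mediator genes tested, 15 rose and 1 fell, with a median log2 fold change of 0.72. Arg1, arginase of alternatively activated macrophages, was at 0.354, 0.338 and 0.323 CPM in Model and at 17.8, 15.7 and 18.6 CPM in GelMA. All 3 Model libraries were low and all 3 GelMA libraries high, at 5.67 ± 0.16 on the log2 scale (edgeR adjusted p = 1.23e-11). Acod1, the itaconate-producing enzyme of macrophages, rose by 4.35, Nos2, the inducible nitric oxide synthase, by 2.05, Il1b by 1.64 and Slpi, an inhibitor of neutrophil elastase, by 1.20. Il6 was at 0.0590, 0.141 and 0.0294 CPM in Model and at 0.525, 0.410 and 0.189 CPM in GelMA, which is 8 and 41 counts over each group. Its rise of 2.23 ± 0.64 passed (edgeR adjusted p = 0.0203) but not without Model 1 (0.0682), Model 5 (0.0794), GelMA 2 (0.0720) or GelMA 3 (0.0557). Il6 reached the filter for low counts only with the PMLGH libraries, so the fit without PMLGH did not test it. That fit tested 23 genes of the cytokine and mediator list, and 11 rose and 1 fell.

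Chemokines for monocytes and lymphocytes rose as well: 11 of 19 monocyte chemokine and receptor genes were higher and 2 lower (median log2 fold change 0.56). The fit without PMLGH tested 18 of these, and 7 rose and 2 fell. Together the 19 genes held 0.0413% to 0.0507% of counts in Model and 0.0456% to 0.0505% in GelMA, so the groups overlapped in this share. Their mean log2 CPM was 1.95 to 2.13 in Model and 2.72 to 2.86 in GelMA, without overlap. Ccl2 and Ccl7, ligands of the monocyte receptor Ccr2, rose by 1.71 and 3.55, and Ccl3 by 1.01. Between 5 and 7 genes of the list rose when Model 1, Model 5 or any one GelMA library was left out. Cxcl13, the chemokine that draws B cells into lymphoid tissue, was at 4.63, 4.98 and 5.40 CPM in Model and at 59.9, 44.2 and 59.1 CPM in GelMA. The difference was 3.44 ± 0.16 on the log2 scale (edgeR adjusted p = 2.64e-09). Of 22 genes in the list named for NF-kappaB feedback, 12 rose and 0 fell (median 0.45), including Socs3 (1.48), Birc3 (0.71), Sod2 (0.60) and Tnfaip3 (0.56). The list is broader than its name, as it holds Socs1, Socs3 and Icam1, and the activity of NF-kappaB was not measured. Among 28 immediate early genes, 11 rose and 3 fell. Junb and the Egr family members Egr1, Egr2 and Egr3 rose by 0.75, 0.83, 1.20 and 0.97, whereas Myc and Btg2 fell by 0.39 and 0.31. Without Model 1 or without GelMA 2, 7 immediate early genes rose.

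Macrophage genes as a list had a smaller median change than these mediators. Of 27 tested, 8 rose (29.6%) and 1 fell (3.70%), beside 12.7% and 9.88% over all genes tested. The median log2 fold change was 0.17, and 15 rose without Model 2. Apoe, the apolipoprotein that tissue macrophages secrete, was at 158.3, 177.3 and 163.4 CPM in Model and at 768.5, 705.9 and 827.9 CPM in GelMA. This was a rise of 2.21 ± 0.07 (edgeR adjusted p = 1.13e-10) at a level far above the chemokines. Gpnmb, Cd14 and Trem2, of lipid-laden and activated macrophages, rose by 0.90, 0.84 and 0.96. Of 21 genes of resident and alternatively activated macrophages, 9 rose and 3 fell (median 0.21). Folr2, Il4r and Clec10a rose by 0.74, 0.62 and 0.53, and Spic, the factor of red pulp and marrow macrophages that recycle iron, fell by 0.54.

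Complement genes rose in 10 of 20 and fell in 2 (median log2 fold change 0.32). C1s, a protease of the classical pathway, was at 33.2, 30.5 and 33.3 CPM in Model and at 91.0, 86.5 and 93.7 CPM in GelMA, a rise of 1.48 ± 0.07 (edgeR adjusted p = 2.64e-09). Its partner C1r rose by 0.86. Genes of antigen presentation by MHC class II rose in 13 of 20 and fell in 0 (median 0.26), but in 7 when Model 1, Model 5 or any one GelMA library was left out. Cd74, the invariant chain, was at 318.5, 393.6 and 301.5 CPM in Model and at 667.3, 634.0 and 724.0 CPM in GelMA. It rose by 1.00 ± 0.09 (edgeR adjusted p = 1.49e-06), and the class II chains RT1-Da, RT1-Ba, RT1-Bb and RT1-Db1 by 1.29, 1.16, 1.09 and 1.04.

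The interferon genes split. Of 25 genes of the interferon-gamma response, 13 rose and 0 fell (median log2 fold change 0.31), led by the T cell chemokines Cxcl11, Cxcl9 and Cxcl10, with rises of 3.69, 2.11 and 1.74, and by the GTPases Gbp5 (0.83) and Gbp2 (0.59). Of 32 genes of the type I interferon response, 7 rose (21.9%) and 4 fell (12.5%), with a median of 0.18. Over all genes tested, 12.7% rose and 9.88% fell. Ifit1, an antiviral RNA-binding protein, was at 202.0, 112.4 and 228.1 CPM in Model and at 93.6, 47.3 and 41.4 CPM in GelMA. The groups did not overlap although each was wide, and the log2 fold change was -1.57 ± 0.26 (edgeR adjusted p = 0.000560). Rsad2, viperin, fell by 0.69, while Ifit3 and Zbp1 of the same list rose by 0.82 and 0.73. Leaving out GelMA 4 left 4 genes of the type I list higher and a median of -0.0023, and leaving out Model 5 left 2 lower.

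**Figure D3:**
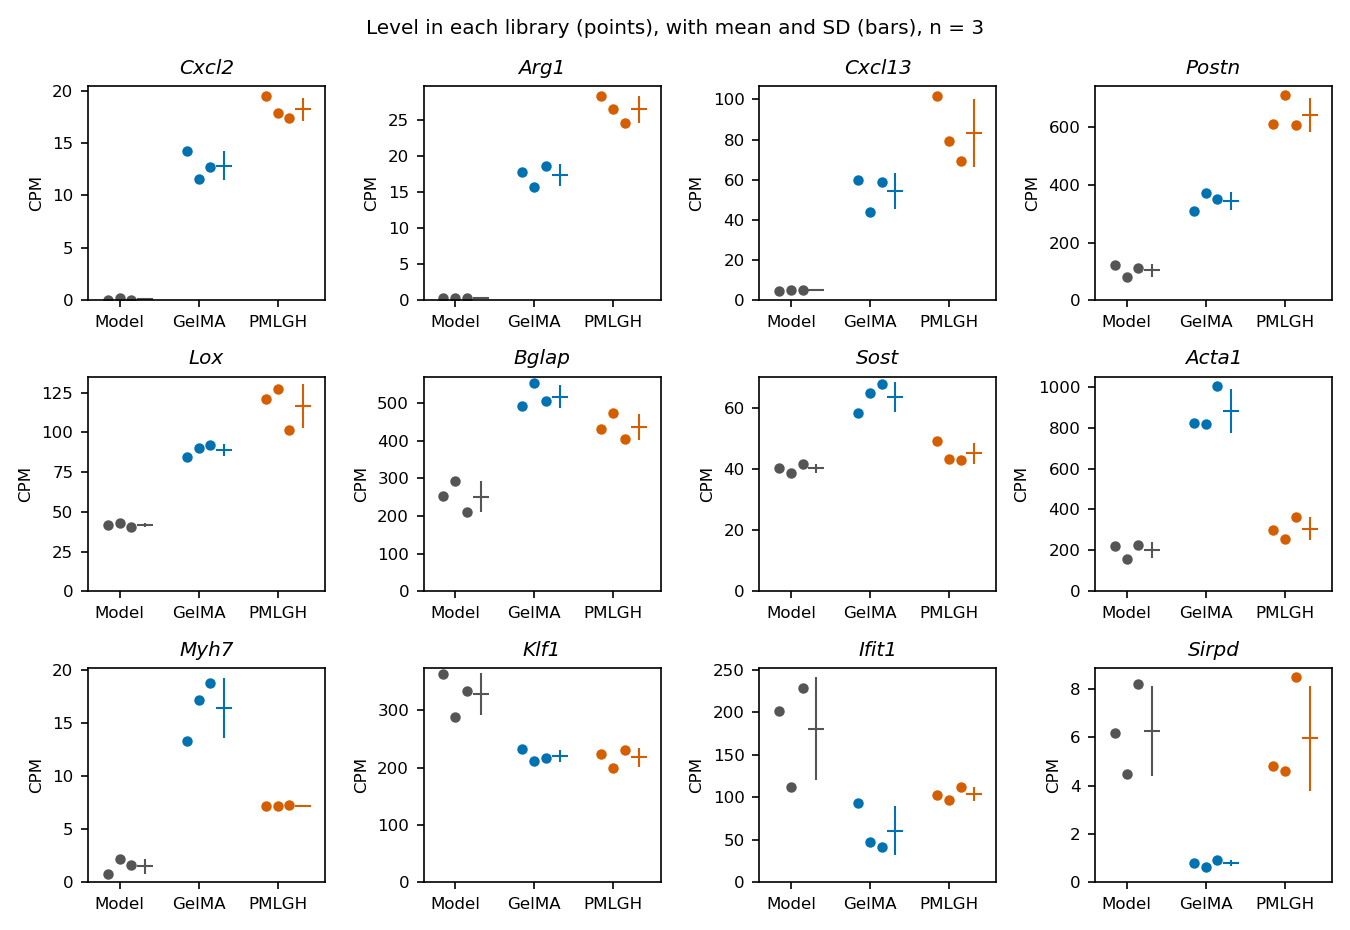
Level of 12 genes in each library (vertical axes, CPM, from 0), by group; points are libraries and the bar beside them is the mean with SD (n = 3). GelMA libraries lie above Model libraries for Cxcl2 to Myh7 and below them for Klf1, Ifit1 and Sirpd; Sost, Acta1 and Myh7 are lower in PMLGH than in GelMA, and Sirpd is higher.

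Lymphoid genes were higher in GelMA but depended on single libraries. Of 24 B lineage genes, 10 rose and 0 fell (median log2 fold change 0.38). The pre-B cell genes Vpreb1 and Igll1 rose by 1.14 and 0.60, but neither passed without Model 5 (edgeR adjusted p = 0.0518 and 0.106) or without GelMA 4 (0.0592 and 0.125), nor Igll1 without GelMA 3 (0.0733). Model 2 was the highest Model library for the mean of these genes, 0.34 above the Model mean on the log2 scale, and GelMA 2, 3 and 4 were 0.22, 0.45 and 0.51 above it. The count of B lineage genes that rose was 18 without Model 2, 2 without Model 1 or without GelMA 3, and 0 without Model 5 or without GelMA 4. Of 34 T and NK cell genes, 12 rose and 0 fell (median 0.46), with 20 without Model 2. The costimulatory receptor Icos rose by 1.21, Cd2 by 1.16 and Zap70, a kinase of T cell receptor signalling, by 0.90. Among 15 plasma cell genes, 8 rose and 0 fell, including Mzb1 (1.16), Prdm1 (0.86) and Sdc1 (0.81), with 5 without Model 1 or without GelMA 4.

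Of 24 neutrophil granule genes, 3 rose and 0 fell, a share of 12.5% beside 12.7% of all genes tested, with a median log2 fold change of 0.12. The count was 10 without Model 2 and 1 when any other library of the 2 groups was left out. Of 16 mast cell and basophil genes, 4 rose and 4 fell. The mast cell tryptase Tpsab1 rose by 1.74, while the basophil protease Prss34 fell by 1.51. Prss34 was at 17.4, 43.7 and 21.3 CPM in Model and at 16.5, 6.24 and 6.24 CPM in GelMA, so the highest GelMA library nearly reached the lowest Model library. The number of mast cell and basophil genes that rose was 1 without Model 1 and 8 without Model 2.

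Against these rises, the genes of red cell formation fell. Of 42 erythroid genes tested, 36 fell and 0 rose, with a median log2 fold change of -0.43. As a share of all counts they took 12.6%, 11.6% and 12.5% in Model 1, 2 and 5 and 9.93%, 9.05% and 8.91% in GelMA 2, 3 and 4 (exact two-sided permutation p = 0.1, the smallest possible). Globin genes alone took 9.52% to 10.1% in Model and 7.07% to 8.01% in GelMA. Klf1, the transcription factor that switches on adult globin, was at 362.0, 288.3 and 333.1 CPM in Model and at 232.1, 211.3 and 216.5 CPM in GelMA. The log2 fold change was -0.58 ± 0.08 (edgeR adjusted p = 0.000125). Rhd, Bpgm, Tal1 and Epb41 fell by 0.58, 0.54, 0.53 and 0.44. With erythroid and mitochondrial genes taken out before scaling, 1947 genes were higher and 2007 lower, so that 49.2% of the genes that passed were higher, against 56.3% with all genes.

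Genes of megakaryocytes and platelets fell in 12 of 21 and rose in 0 (median log2 fold change -0.29), among them Gfi1b, shared with red cell precursors (-0.52), Mmrn1 (-0.50), Pf4 (-0.39) and Itga2b (-0.35). Cell cycle genes fell in 30 of 42 and rose in 0 (median -0.24). Mki67, a marker of dividing cells, was at 2037, 1736 and 1983 CPM in Model and at 1522, 1498 and 1479 CPM in GelMA, a fall of 0.36 ± 0.07 on the log2 scale (edgeR adjusted p = 0.00126). Ccne2, the cyclin of S phase entry, fell by 0.48. Genes of cytosolic ribosomal proteins fell in 54 of 59 and rose in 0 (median -0.29), by 0.51 for Rps20, 0.49 for Rps25 and 0.41 for Rps14. These falls were small, and Model 2 was the Model library nearest to GelMA in the mean of the erythroid, cell cycle and ribosomal protein genes.

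Adipocyte genes fell in 11 of 25 and rose in 1 (median log2 fold change -0.27). Fabp4, the fatty acid carrier of fat cells, was at 647, 549 and 697 CPM in Model and at 392, 375 and 427 CPM in GelMA, a fall of 0.67 ± 0.08 (edgeR adjusted p = 4.88e-05). Plin1, which coats lipid droplets, fell by 0.71, Lpin1 by 0.62 and Pck1 by 0.91. Scd, the stearoyl-CoA desaturase, was the member that rose, by 1.07. Adipoq, adiponectin, did not pass, at -0.39 ± 0.14 (edgeR adjusted p = 0.0536), but passed without Model 2 (0.000509) and without GelMA 4 (0.0180). It also passed with RLE or upper-quartile scaling of the counts, with no filter on low counts, and without erythroid and mitochondrial genes.

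Skeletal muscle genes rose in 40 of 44 and fell in 0, with a median log2 fold change of 1.96. Acta1, the actin of skeletal muscle, was at 223.8, 158.9 and 227.7 CPM in Model and at 820.3, 818.2 and 1005 CPM in GelMA. The lowest GelMA library was far above the highest Model library, at 2.11 ± 0.14 on the log2 scale (edgeR adjusted p = 1.08e-07). Myh7, the slow myosin, was at 0.767, 2.20 and 1.61 CPM in Model and at 13.3, 17.2 and 18.8 CPM in GelMA, and Smpx, a small protein of muscle attachment sites, rose by 3.28. The giant proteins Neb and Ryr1, the scaffold protein Mybpc1 and myoglobin, Mb, rose by 2.23, 1.86, 2.48 and 2.19. Muscle genes made up 20 of the 177 rises of 4-fold or more, which is 45.5% of the muscle list against 1.05% of all genes tested. Myosin heavy chain genes are near-identical in part, so the split of reads between them is uncertain.

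Among 19 keratin and epithelial genes tested, 5 rose and 1 fell. The desmosomal cadherin Dsg3 rose by 0.73 and E-cadherin, Cdh1, fell by 0.39, and both passed whichever library was left out. Krt1 was at 0.206, 0.366 and 0.352 CPM in Model and at 0.663, 0.656 and 16.4 CPM in GelMA, and Krt10 at 0.826, 0.535 and 0.323 CPM and at 0.939, 0.848 and 16.0 CPM. GelMA 4 alone was high for these keratins of the outer skin. Without GelMA 4 the log2 fold changes were 1.07 and 0.65 (edgeR adjusted p = 0.306 and 0.520), and Krt10 did not pass without Model 5 either (0.0659). Krt5, the keratin of basal epithelium, was at 2.15, 2.65 and 2.96 CPM in Model and at 2.90, 0.0547 and 2.59 CPM in GelMA. It did not pass, at -0.48 ± 0.65 (edgeR adjusted p = 0.652). The number of list members that rose was 1 without GelMA 4, 2 without Model 5 and 3 without Model 1.

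Metabolic genes were divided, and some shares lay near those of all genes tested, of which 12.7% rose and 9.88% fell. Of 30 genes of glucose uptake and glycolysis, 12 rose and 2 fell (median log2 fold change 0.23). Pgam2 and Pfkm, isoforms of muscle, rose by 2.11 and 0.78, and Slc2a1, the general glucose transporter, by 1.08. Of 22 hypoxia genes, 5 rose (22.7%) and 3 fell (13.6%). Hif1a, Epas1 and Ndrg1 rose by 0.42, 0.47 and 0.50, and Ddit4 fell by 0.99. Among 49 nuclear genes of oxidative phosphorylation, 6 fell (12.2%) and 0 rose (median -0.06). There were 14 falls without Model 2, 2 without Model 1 and 3 without GelMA 3. Mitochondrial transcripts held 4.92% to 5.43% of counts in Model and 5.29% to 5.46% in GelMA, and these ranges overlap. Of 33 antioxidant genes, 5 rose (15.2%) and 11 fell (33.3%), with 3 rises without GelMA 3 or without GelMA 4. The secreted peroxidase Gpx3 and Gpx7 of the endoplasmic reticulum rose by 0.57 and 0.83, whereas Gpx1 and the metallothionein Mt1 fell by 0.31 and 0.53. In the unfolded protein response, 4 of 25 rose (16%) and 3 fell (12%), near the shares over all genes tested. Asns, asparagine synthetase, fell by 0.70. Without Model 2, 10 genes of this list rose, 2 did without Model 5, and 1 did without Model 1, GelMA 3 or GelMA 4.

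The largest falls named by the rule were of genes at low to moderate levels. Sirpd, of the signal regulatory protein family, was at 6.16, 4.48 and 8.19 CPM in Model and at 0.801, 0.656 and 0.919 CPM in GelMA. The groups were well apart, at -2.98 ± 0.30 on the log2 scale (edgeR adjusted p = 7.04e-06). Pdzk1ip1, a small membrane protein, fell by 2.32, Sdsl, a serine dehydratase, by 1.66, Ghrhr, the receptor of growth hormone-releasing hormone, by 1.26 and Klb, the co-receptor of certain fibroblast growth factors, by 1.18. Klb did not pass without Model 5 (edgeR adjusted p = 0.0852). Bin2a, Fam221a, Prss29, Immp2l and Rnf208 fell by 1.54, 1.53, 1.40, 1.09 and 1.05. Of these, Immp2l passed only when Model 2 was the library left out (0.0547 to 0.112 otherwise), Bin2a did not pass without Model 5 (0.140), Model 1 (0.05), GelMA 3 (0.111) or GelMA 4 (0.0861), and Fam221a did not without Model 5 (0.153), GelMA 2 (0.0928) or GelMA 3 (0.0955). Sirpd, Prss34 and the class I gene RT1-A3 have close relatives in the genome, and how reads were divided among such copies is not given in the sources used here.

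GelMA differed from PMLGH in fewer genes. Of 16816 genes tested, 578 (3.44%) passed between PMLGH and GelMA, 303 higher and 275 lower in PMLGH. The count was 338 without GelMA 3, 328 without GelMA 4, 373 without PMLGH 2, 303 without PMLGH 3 and 381 without PMLGH 4, and 1059 when those 6 libraries alone were fitted. Differences of both hydrogel groups from Model share the 3 Model libraries. The 5 largest falls from GelMA to PMLGH were of the muscle genes Mylk4, Myoz3, Popdc3, Smpx and Ckmt2, and 32 of the 44 muscle genes were lower in PMLGH. Acta1 was at 300.2, 254.1 and 364.1 CPM in PMLGH, below every GelMA library (log2 fold change -1.53, edgeR adjusted p = 1.60e-05). The muscle list had a median difference from Model of 1.96 in GelMA and 0.62 in PMLGH.

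Some matrix genes were higher in PMLGH than in GelMA. Of the 27 collagen chains, 9 were higher in PMLGH than in GelMA and 0 lower, and of the 21 cross-linking enzymes 4 and 0. Of the 13 small leucine-rich proteoglycans, 1 was higher and 1 lower. Lox was at 121.3, 127.6 and 101.4 CPM in PMLGH, above every GelMA library (log2 fold change 0.40 ± 0.07, edgeR adjusted p = 0.00676). Postn differed by 0.90. For Col1a1 the difference was 0.17 ± 0.08 and did not pass (edgeR adjusted p = 0.330).

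Of 14 osteocyte genes, 3 were lower in PMLGH than in GelMA and 0 higher, with a median difference of -0.11 on the log2 scale. Dmp1 was at 492.4, 357.7 and 296.5 CPM in PMLGH, below all 3 GelMA libraries (log2 fold change -1.11, edgeR adjusted p = 0.00102), and Sost and Mepe differed by -0.49 and -0.62. Bglap did not pass (log2 fold change -0.24, edgeR adjusted p = 0.227). B lineage genes were lower in PMLGH in 14 of 24. Of inflammatory genes, 8 of 26 cytokine and mediator genes, 10 of 27 macrophage genes and 8 of 25 interferon-gamma genes were higher in PMLGH, with 0 lower. Of 10 genes of the neutrophil-attracting chemokine list and 32 type I interferon genes, 0 passed in either direction. Slpi differed by 1.24, Acod1 by 1.36 and Cxcl10 by 1.40, whereas Cxcl2, at 19.5, 17.9 and 17.4 CPM in PMLGH, did not pass (log2 fold change 0.50 ± 0.17, edgeR adjusted p = 0.128). Sirpd was at 4.80, 4.61 and 8.48 CPM in PMLGH, within the range of the 3 Model libraries at its lowest 2 values and close above it at the highest, and differed from GelMA by 2.91 on the log2 scale (edgeR adjusted p = 5.64e-05).

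**Figure D4:**
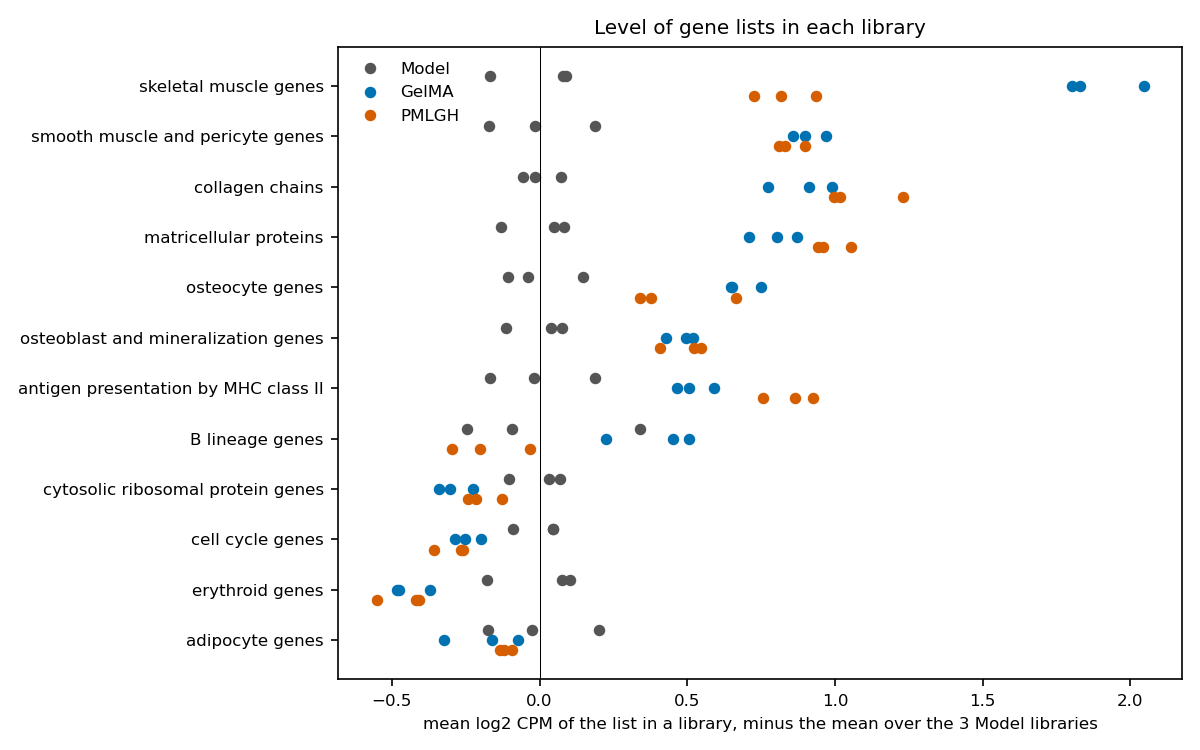
Mean log2 CPM of 12 gene lists in each of the 9 libraries, minus the mean over the 3 Model libraries (horizontal axis); each point is a library, coloured by group. Muscle genes lie between 1.80 and 2.04 in GelMA and between 0.73 and 0.94 in PMLGH, and erythroid genes between -0.48 and -0.37 in GelMA; for B lineage genes Model 2 lies within the range of GelMA.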

How the data were processed

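Raw counts per gene and FPKM (fragments scaled to gene length and library total) were the deposited tables; the authors made both for all 9 libraries, and the 9 columns were matched to samples by name, with 0 columns left unused. In 22798 genes the deposited FPKM followed from count, library total and a single gene length, within a relative tolerance of 0.0001. The submitters' processing notes name DESeq2 and R 3.2.0 with no role. The sources used here do not give the aligner, counting tool, strand, genome build or annotation.

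Counts were tested with edgeR 4.0.16 in R 4.3.3 (filterByExpr, TMM scaling, quasi-likelihood F-test, two-sided, 1 mean per group over 9 libraries, 6 residual degrees of freedom). P-values were adjusted over all 16816 genes by Benjamini-Hochberg, and adjusted p under 0.05 passed. The fit was checked on simulated data. The common biological coefficient of variation was 10.1%. CPM values use library totals adjusted by TMM, and a gene with 0 counts in a library is compatible with up to 3 counts. Percent values are shares of deposited counts. The ± after a log2 fold change is its standard error. Counting intervals are exact and cover counting error only. Of 1154 list symbols in 45 lists, 1123 matched the tables, 6 by another name.

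Lists, motifs and naming rules were chosen with earlier results of these data known, so they give no independent support. Genes were named by 5 rules: the 12 largest changes each way among non-overlapping genes of at least 1 CPM with a proper symbol, up to 6 members of smallest p per list, 10 fixed genes, the 5 largest differences each way between PMLGH and GelMA, and markers that define a cell type. Adipoq and Mpo, cell type markers, and Ccl20, for its promoter, were added after their values were seen. Alternatives were other scalings, DESeq2 1.42.0, limma 3.58.1 on log2(FPKM + 1) and log2(FPKM + 0.1), other filters, and each library left out. Replicate pairs were compared by chi-square (13686 genes, mean count 50 or more), and each pair differed beyond sampling noise. The result for 1 gene is not reported here.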

Additional observations from a re-analysis of the deposited data

How the results depend on the processing

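Over 16 alternatives for GelMA against Model, 287 named genes gave 4575 values, of which 4329 kept their side of the threshold, 225 no longer passed, 21 came to pass and 0 passed in the opposite direction. A gene that a fit did not test, or left without an adjusted p, gave no value there and is not counted as lost. Il6, Ccl20 and Csf3 in the fit without PMLGH are such cases. Krt5 and Mpo, which passed in no fit, changed sign in 1 and 4 fits. The genes lower in GelMA (1661) became 1107 and 1103 with limma on log2(FPKM + 1) and log2(FPKM + 0.1), and 910 with limma and no filter. Leaving out 1 library gave 1035 to 2468 lower and 1454 to 2585 higher genes. The share of genes that passed and were higher was 56.3% in the edgeR fit, 65.6% to 65.8% with limma and 49.2% without erythroid and mitochondrial genes. For PMLGH against GelMA (578 genes), leaving out 1 library gave 303 to 412. The fit of those 6 libraries gave 1037 genes with the replicate block and 1059 without a block. Libraries of equal number did not deviate together (correlations 0.01, 0.03 and -0.01), so the number is not taken as a pairing. No paired analysis was possible for GelMA against Model because they share only replicate number 2. In each limit above the cause was not tested. With 3 libraries a group, no permutation p can fall under 0.1.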
